A study of Mus musculus with 12 samples.

Results

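The promoter sites described here are 429 of the 11227 windows in which HA-tagged Rev-Erbα was called bound in brown adipose tissue of mice housed in the cold. That is 3.82% of the 4 °C list (exact Clopper-Pearson 95% interval 3.47 to 4.19%). They are the rows that the authors' annotation puts at a promoter (class promoter-TSS), each a 200 bp window tied to its nearest transcription start. The same class held 65 of the 2183 windows of the 29 °C list, 2.98% (2.31 to 3.78%). The 429 windows belonged to 424 genes, of which Pparg, Mgst1, Steap4, Fam134b and 1700054A03Rik had 2 windows each.

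All samples came from C57BL/6 mice. HA-RevErba mice, whose Rev-Erbα carries an HA epitope tag, were kept for 1 week at 4 °C (4 libraries) or at 29 °C, which is thermoneutral for mice (4 libraries). Wild-type (WT) mice went through the same housing and the same pull-down on anti-HA beads and give the background (2 libraries at 4 °C, 2 at 29 °C). Ages, the way the tagged protein is driven and the number of animals behind a library are nowhere given in the sources used here. HA-RevErba libraries held 28.7 to 37.3 M (mega) aligned reads at 4 °C and 27.0 to 36.9 M at 29 °C (means 32.0 ± 3.80 M at 4 °C and 30.9 ± 4.68 M at 29 °C, SD, n = 4 each). The means differed by 1.06 M, less than the libraries of a group did among themselves (exact two-sided permutation p = 0.714, where the design allows no p under 0.0286). WT libraries held 29.2 and 32.6 M at 4 °C and 27.4 and 36.1 M at 29 °C. The values in the windows were those of 4 pools, 1 per genotype and temperature, so no spread between animals stands behind any of them. Of 10 brown adipocyte markers, 8 had a window somewhere in the 4 °C list and 4 a promoter window (Fabp4, Pparg, Adipoq, Ppargc1a), while Ucp1, Cidea, Prdm16, Dio2, Adrb3 and Plin1 had no promoter window. Over all 21031 protein-coding genes 21.8% had a window of any kind and 1.77% a promoter window. These are binding and not expression values, so they check the tissue only indirectly, and in chromatin of whole tissue more cells of a type and more binding per cell cannot be told apart.

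Rev-Erbα is a heme-binding nuclear receptor without the helix that recruits coactivators. It holds transcription down through the corepressor NCoR and its histone deacetylase HDAC3, and it competes with the activating ROR receptors for the same DNA in the clock genes. It binds alone to the hexamer AGGTCA with an A/T-rich flank in front, or as a pair to tandem hexamers, and in other tissues it is also known to reach DNA through other factors. In brown fat it is known as a repressor of the heat-producing programme and in fat and liver as a regulator of lipid synthesis.

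The promoters of 7 genes of the list are printed from RefSeq (GRCm38.p6), from 250 bases before to 50 bases after the start, 5′ to 3′ along the gene. Nr1d1 and Nfil3 are shown as the strongest windows. Fam124b, Aifm2 and Leo1 are strong windows present at both temperatures, and Slc25a34 and Elovl6 are windows of the 4 °C list only with large ratios. Strength and ratio alone do not give this choice. The shared window of Coq8a was stronger (25.97 FPKM in the cold), and Tenm4, in the 4 °C list only, had a larger ratio (9.54). All the printed promoters but that of Nr1d1 hold AGGTCA, against 20.1% of the 298 coding genes of the list with promoter sequence. The printed promoters therefore do not show how common the hexamer is. Capitals mark each AGGTCA hexamer, written TGACCT where it lies on the opposite strand. They lie at chr11:98775328-98775627 (minus strand, Nr1d1), chr13:52980990-52981289 (minus, Nfil3), chr1:80213895-80214194 (minus, Fam124b), chr10:61720399-61720698 (plus, Aifm2), chr9:75441274-75441573 (plus, Leo1), chr4:141623785-141624084 (minus, Slc25a34) and chr3:129532136-129532435 (plus, Elovl6).
Nr1d1: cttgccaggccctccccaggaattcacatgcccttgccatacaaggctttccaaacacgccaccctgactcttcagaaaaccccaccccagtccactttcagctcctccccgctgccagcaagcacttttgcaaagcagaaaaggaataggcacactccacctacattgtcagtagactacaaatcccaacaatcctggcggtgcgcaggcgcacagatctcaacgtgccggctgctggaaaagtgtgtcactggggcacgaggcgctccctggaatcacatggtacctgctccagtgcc
Nfil3: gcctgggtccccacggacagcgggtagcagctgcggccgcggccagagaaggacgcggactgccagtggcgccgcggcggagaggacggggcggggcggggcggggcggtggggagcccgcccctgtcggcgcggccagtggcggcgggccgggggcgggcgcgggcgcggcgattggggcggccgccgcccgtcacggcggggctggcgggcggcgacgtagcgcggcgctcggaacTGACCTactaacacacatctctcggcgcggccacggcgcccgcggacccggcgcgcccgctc
Fam124b: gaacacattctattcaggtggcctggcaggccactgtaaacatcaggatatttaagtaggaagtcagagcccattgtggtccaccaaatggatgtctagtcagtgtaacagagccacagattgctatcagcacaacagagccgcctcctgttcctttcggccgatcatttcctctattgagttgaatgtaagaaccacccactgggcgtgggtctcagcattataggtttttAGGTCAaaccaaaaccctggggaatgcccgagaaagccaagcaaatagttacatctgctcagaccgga
Aifm2: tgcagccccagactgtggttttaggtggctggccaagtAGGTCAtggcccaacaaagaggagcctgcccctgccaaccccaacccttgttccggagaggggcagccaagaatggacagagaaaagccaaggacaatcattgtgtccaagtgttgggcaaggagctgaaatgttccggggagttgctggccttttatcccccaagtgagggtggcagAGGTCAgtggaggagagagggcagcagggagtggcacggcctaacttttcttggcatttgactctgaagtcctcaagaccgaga
Leo1: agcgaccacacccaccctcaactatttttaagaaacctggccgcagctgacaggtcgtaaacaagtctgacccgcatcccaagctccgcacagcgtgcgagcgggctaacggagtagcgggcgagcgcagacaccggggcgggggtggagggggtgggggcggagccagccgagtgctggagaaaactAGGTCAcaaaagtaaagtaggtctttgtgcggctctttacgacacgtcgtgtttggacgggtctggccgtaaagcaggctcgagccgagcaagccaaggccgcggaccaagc
Slc25a34: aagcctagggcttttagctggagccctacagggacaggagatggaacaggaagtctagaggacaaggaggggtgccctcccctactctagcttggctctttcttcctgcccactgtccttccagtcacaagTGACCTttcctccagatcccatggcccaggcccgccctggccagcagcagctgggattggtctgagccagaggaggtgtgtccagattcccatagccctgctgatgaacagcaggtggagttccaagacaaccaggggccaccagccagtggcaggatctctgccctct
Elovl6: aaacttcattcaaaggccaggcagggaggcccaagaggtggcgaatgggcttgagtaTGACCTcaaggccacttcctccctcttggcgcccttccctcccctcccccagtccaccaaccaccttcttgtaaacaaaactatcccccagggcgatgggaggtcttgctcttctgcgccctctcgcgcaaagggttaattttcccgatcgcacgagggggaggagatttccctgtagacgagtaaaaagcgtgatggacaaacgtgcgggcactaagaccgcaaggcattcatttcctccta
Nr1d1, with the strongest signal of all promoter sites, holds no exact AGGTCA in this stretch. Only exact copies were searched for, so hexamers that differ from AGGTCA by a base or more are not marked. Whether Nr1d1 holds such a variant was not tested. Leo1 holds 1 such hexamer, at -62 from the start and 55 bases upstream of the centre of its window. Aifm2 holds a hexamer at -212, 57 bases upstream of its window's centre, and another at -34. Both the Leo1 hexamer and the hexamer at -212 of Aifm2 stand in the full monomer pattern AANTAGGTCA. The hexamer of Slc25a34 lies 2 bases from the centre of its window. These offsets assume that the start is the same in mm9, the build of the windows, and in GRCm38.p6.

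The class itself reaches about 1000 bases upstream of the transcription start but little way downstream, so the upstream share below is set by the annotation. The centres lay between -999 and 791 bases from it, with a median of -168, and 371 of 429 (86.5%) lay upstream. Within 100 bases of the start lay 140 windows (32.6%), 96 (22.4%) lay more than 500 bases upstream, and 7 lay more than 100 bases downstream. In the 29 °C list the same shares were 17 of 65 (26.2%, 16.0 to 38.5%) and 15 of 65 (23.1%, 13.5 to 35.2%), so the intervals overlap those of the 4 °C list. The gene was protein-coding for 377 windows, and 52 (12.1%, 9.19 to 15.6%) belonged to noncoding genes, 11 of them to miRNA genes, against 16.8% (16.1 to 17.5%) of the other 10798 windows of the list. In 15 windows the annotated transcript belonged to another gene than the nearest start, such as Bccip beside Uros and Ap4m1 beside Mcm7, so such a window cannot be given to either gene alone.

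**Figure D1:**
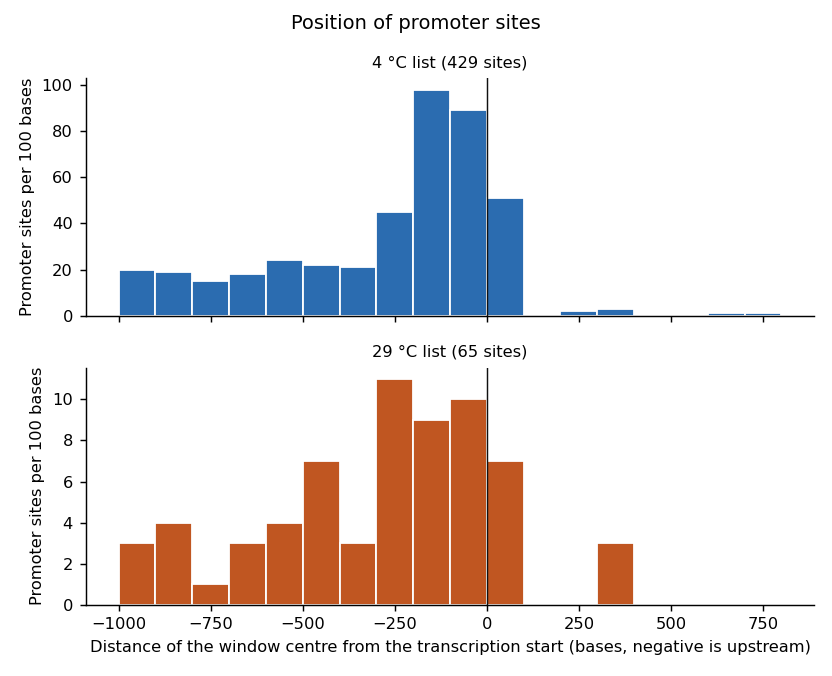
Number of promoter sites per 100 bases of distance between the window centre and the transcription start (x axis, bases, negative is upstream), for the 4 °C list (top, 429 sites) and the 29 °C list (bottom, 65 sites). The vertical axes differ in scale; in the 4 °C list 140 sites lie within 100 bases of the start.

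At 4 °C the promoter windows had the same median signal as the other windows of the list, over a somewhat higher WT background. FPKM here is reads per kilobase of window and M (mega) reads of the pool. The median HA-RevErbα signal at 4 °C was 7.07 FPKM over promoter windows (10th to 90th percentile 4.17 to 14.9) and 7.07 over the others (4.15 to 14.7). At 29 °C the medians were 2.31 FPKM over promoter windows and 2.39 over the others. The WT pools had medians of 1.30 FPKM in the cold and 1.41 at 29 °C over promoter windows, against 1.12 at 4 °C and 1.21 at 29 °C over the other windows. The WT signal at 4 °C was above the median of the other windows in 50.8% (46.0 to 55.6%) of promoter windows and in 44.9% (43.9 to 45.8%) of the others, and at 29 °C in 51.5% (46.7 to 56.3%) of promoter windows and 40.1% (39.2 to 41.1%) of the others. The median ratio of HA-RevErbα to WT was lower at promoters, 5.56 against 6.30 in the others at 4 °C and 1.82 against 2.17 in the others at 29 °C. At 29 °C the HA-RevErbα signal was at or under its WT background in many promoters: it was below it in 77 windows (17.9%, 14.4 to 21.9%), against 13.4% (12.7 to 14.0%) of the others. A counting interval wholly above the WT signal at 29 °C was found in 143 promoter windows (33.3%), against 41.5% over all windows of the list. Whether the higher WT signal at promoters has a part in these differences was not tested.

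**Figure D2:**
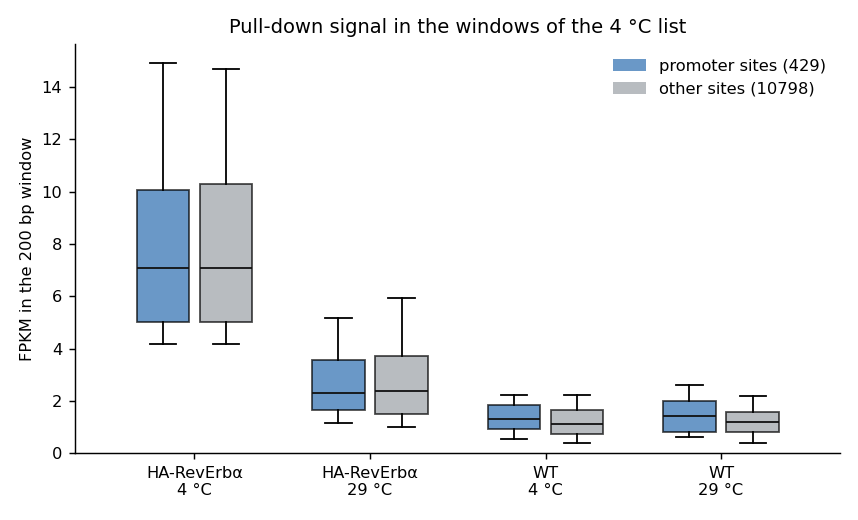
FPKM in the 200 bp windows of the 4 °C list (y axis) in the 4 pools (x axis), for promoter sites (blue, 429) and other sites (grey, 10798). Lines are medians, boxes the middle quartiles and whiskers the 10th and 90th percentiles over windows; the WT medians are higher at promoters, 1.30 against 1.12 FPKM at 4 °C.

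Nearly every promoter window carried more HA-RevErbα signal at 4 °C than at 29 °C, about as the rest of the list did. The 4 °C values of the HA-RevErbα and WT pools chose these windows (at least 3 FPKM and about 4-fold over WT), so part of this excess is set by the choice and it is given as a description. The median ratio of 4 °C to 29 °C was 3.06 over promoters and 3.05 over the other windows, but the promoters were less spread, with 10th and 90th percentiles of 1.99 and 4.77 at promoters against 1.73 and 5.80 at the others. The counting interval of the ratio lay above 1 in 423 of 429 promoter windows (98.6%, 97.0 to 99.5%), beside 95.4% of all windows of the list. No promoter window had an interval below 1 (upper bound 0.856%), beside 0.41% of all windows. A ratio of at least 2 was found in 383 promoter windows (89.3%), beside 83.4% of all windows. In the 29 °C list, whose windows were chosen on the 29 °C values, the interval lay above 1 in 52 of 65 promoter windows (80.0%, 68.2 to 88.9%), beside 66.8% of all windows of that list. It lay below 1 in 2 of them, beside 7.74% of all. The median ratio there was 1.81 at promoters and 1.63 at the other windows.

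**Figure D3:**
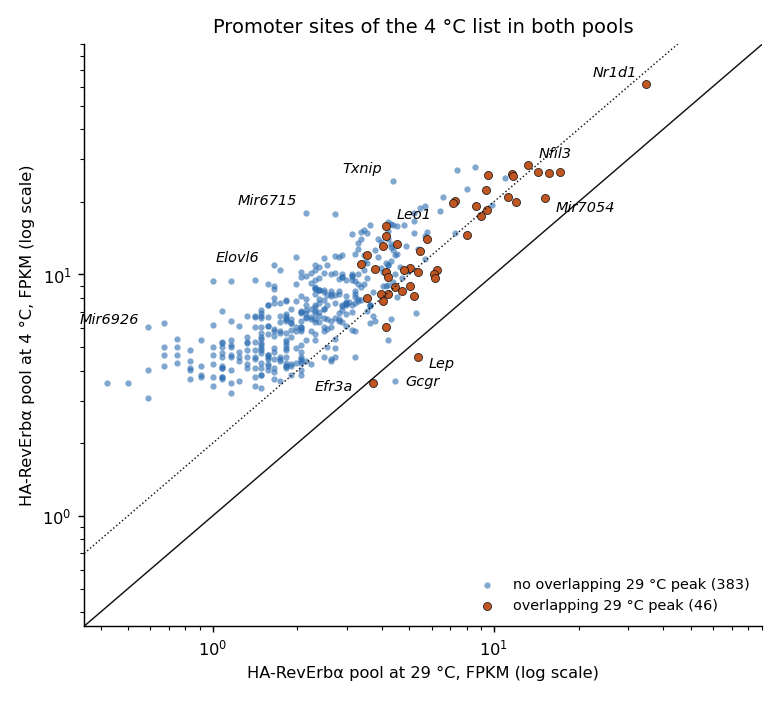
HA-RevErbα signal of the 429 promoter sites of the 4 °C list, 29 °C pool on the x axis and 4 °C pool on the y axis (FPKM, both log scales). Orange points overlap a 29 °C peak (46), blue points do not (383); the solid line is a ratio of 1 and the dotted line a ratio of 2, and 426 sites lie above the solid line.

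Of the 429 promoter windows, 46 (10.7%, 7.96 to 14.0%) overlapped a window of the 29 °C list, against 1624 of the 10798 other windows (15.0%, 14.4 to 15.7%). Seen from the 29 °C list, 46 of 65 promoter windows (70.8%, 58.2 to 81.4%) overlapped a 4 °C window, against 76.7% (74.8 to 78.5%) of the others. All 46 were annotated as promoter in both lists. The shared windows had medians of 12.8 FPKM in the cold and 5.4 at 29 °C and a median ratio of 2.05. The 383 windows of the 4 °C list alone had medians of 6.75 FPKM in the cold and 2.15 at 29 °C and a median ratio of 3.20. To be shared a window must pass the limits at 29 °C too, which by itself brings a higher 29 °C signal and a lower ratio. Of the 12 highest windows at 4 °C, those of A230028O05Rik, Lalba, Aqp7 and Txnip were not shared, while the weak windows of Lep and Efr3a were. A window missing from the 29 °C list was not necessarily empty at 29 °C. Of these 383, 97 (25.3%) had an HA-RevErbα signal above WT by the counting interval, against 31.6% of the other windows of the 4 °C list alone. Both limits of the list were reached there by 4 (A230028O05Rik, 3930402G23Rik, Vapa and Scpep1os), 1.04% as in the other windows. Clock, with 9.88 FPKM against 2.60 in WT, reached the difference but, at 3.81-fold, not the fold. Neither limit was reached at 29 °C in 335 of the 383 (87.5%), against 82.4% of the other windows of the 4 °C list alone. Just inside the limits at 4 °C stood Trib2, whose 3.38 FPKM was 3.0 over WT, and Ppara, whose 6.68 FPKM was 4.0 times the WT value.

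By distance, the median HA-RevErbα signals of the 4 °C list were lowest at the start and did not change steadily with distance upstream. Over the 140 windows within 100 bases of the start the median signal was 6.01 FPKM in the cold and 1.82 at 29 °C, with a median ratio of 3.19, and 10 of them (7.14%) were shared. Over the 125 windows over 100 and up to 250 bases upstream it was 7.46 FPKM in the cold and 2.39 at 29 °C, with a median ratio of 3.12, and 11 (8.80%) were shared. Over the 61 windows over 250 and up to 500 bases upstream it was 8.64 FPKM in the cold and 3.30 at 29 °C, with a median ratio of 2.90, and 9 (14.8%) were shared. The 96 windows more than 500 bases upstream had 7.46 FPKM in the cold and 2.39 at 29 °C, as in the class up to 250 bases upstream, with a median ratio of 3.05, and 13 (13.5%) were shared. The median of HA-RevErbα over WT rose with distance upstream. At 29 °C it was 1.51 at the start, 1.75 up to 250, 2.15 up to 500 and 2.25 beyond 500 bases upstream. At 4 °C it was 5.30, 5.56, 5.57 and 5.96 in the same order. In the 29 °C list the signal ran otherwise, with 11.9 FPKM in the cold and 5.52 at 29 °C in the 17 windows within 100 bases of the start, against 8.87 in the cold and 4.94 at 29 °C in the 15 windows over 250 and up to 500 bases upstream.

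The strongest promoter site was that of Nr1d1, the gene of Rev-Erbα itself. Its window (chr11:98636591-98636791 in mm9, at the start) had 61.6 FPKM in the cold and 34.8 at 29 °C, with 2.96 in the cold and 4.79 at 29 °C in WT. That is a ratio of 1.77 (1.57 to 1.996), 1 of the 10 smallest by the upper bound of its interval, while the level is the highest at both temperatures. Nfil3, a repressor of D-box genes, came next (chr13:53076256-53076456) with 28.3 FPKM in the cold and 13.2 at 29 °C, against 2.59 in the cold and 0.81 at 29 °C in WT, and a ratio of 2.15 (1.78 to 2.61). Clock, the partner of BMAL1, had 19.5 FPKM in the cold and 9.88 at 29 °C, with 2.04 in the cold and 2.60 at 29 °C in WT, and a ratio of 1.97 (1.58 to 2.47). Dbp, a D-box activator, had 12.2 FPKM in the cold and 4.53 at 29 °C over WT values of 1.48 in the cold and 3.20 at 29 °C, and a ratio of 2.69 (1.96 to 3.72). Of 24 core clock genes 5 had a promoter window at 4 °C and 17 a window of any kind. Over all protein-coding genes 373 of 21031 (1.77%) had a promoter window. Only Nr1d1 and Nfil3 of the 5 also had one at 29 °C, where 57 coding genes (0.271%) did.

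Fatty acid synthesis had a promoter window in 5 of 24 genes at 4 °C and in none at 29 °C. Over all protein-coding genes the shares were 1.77% at 4 °C and 0.271% at 29 °C. A count of 0 at 29 °C is thus close to the share of all genes. A window of any kind at 4 °C was found in 18 of the 24 (75%), beside 21.8% of all protein-coding genes. Elovl6, which lengthens palmitate, had 10.9 FPKM in the cold and 1.65 at 29 °C, against 0.93 in the cold and 2.20 at 29 °C in WT, and a ratio of 6.63 (4.13 to 11.2). The ratio of HA-RevErbα to WT at 29 °C was 0.75, with a counting interval of 0.343 to 1.73 that holds 1. Pcx, the mitochondrial pyruvate carboxylase, had 6.75 FPKM in the cold and 1.49 at 29 °C (ratio 4.56, 2.72 to 8.05), with 1.30 in the cold and 1.80 at 29 °C in WT. Me1, which makes NADPH from malate, had 4.24 FPKM in the cold and 1.0 at 29 °C (ratio 4.29, 2.27 to 8.81), with 0.75 in the cold and 1.80 at 29 °C in WT. Elovl3, an elongase of very long chains known for its rise in brown fat in the cold, had 4.56 FPKM in the cold and 1.24 at 29 °C (ratio 3.69, 2.06 to 7.005), with 0.93 in the cold and 1.01 at 29 °C in WT. The fifth gene, Elovl1, had the lowest ratio of the list, 2.79. The intervals of the ratio to WT at 29 °C also held 1 for Pcx (0.825, 0.352 to 2.08) and Me1 (0.55, 0.213 to 1.48), and a value under WT at 29 °C was seen in 17.9% of all promoter windows.

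Fatty acid oxidation had a promoter window in 6 of 25 genes at 4 °C and in none at 29 °C, with ratios between 3.12 and 3.94. Over all protein-coding genes the shares were 1.77% at 4 °C and 0.271% at 29 °C, so a count of 0 at 29 °C is close to the latter. A window of any kind at 4 °C was found in 13 of the 25 (52%), beside 21.8% of all. Acsl1 had 2 windows of other classes in the 29 °C list. Acsl1, which activates long-chain fatty acids, had 16.6 FPKM in the cold and 4.20 at 29 °C (ratio 3.94, 2.89 to 5.47) with 2.04 in the cold and 1.60 at 29 °C in WT. Etfdh, which passes electrons from acyl-CoA dehydrogenases to ubiquinone, had 7.15 FPKM in the cold and 2.15 at 29 °C, and Echs1, the short-chain enoyl-CoA hydratase, had 6.91 in the cold and 2.15 at 29 °C. Ppara and Acot2 also belong to the group. All 6 had intervals above 1, as 95.4% of all windows did.

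Of 28 thermogenesis genes 3 (10.7%) had a promoter window at 4 °C and 14 (50%) a window of any kind. Over all protein-coding genes these shares were 1.77% and 21.8%. Kcnk3, a potassium channel of brown adipocytes, had 8.87 FPKM in the cold and 3.38 at 29 °C (ratio 2.63, 1.82 to 3.85), with 1.48 in the cold and 2.40 at 29 °C in WT. Ppargc1a, the coactivator that drives mitochondrial genes, had 3.70 FPKM in the cold and 1.65 at 29 °C (ratio 2.24, 1.30 to 3.99), with 0.38 in the cold and 0.81 at 29 °C in WT. Its promoter was its weaker site, since an intergenic window of the same gene reached 14.1 FPKM. Esrrg, an estrogen-related receptor of oxidative tissue, had 6.91 FPKM in the cold and 5.27 at 29 °C with 1.48 in the cold and 1.41 at 29 °C in WT, and its ratio of 1.31 (0.939 to 1.84) had an interval that holds 1. Fabp4, the fatty acid carrier of adipocytes, had 19.2 FPKM in the cold and 5.68 at 29 °C (ratio 3.39, 2.58 to 4.49) with a high WT background of 4.43 in the cold and 2.80 at 29 °C. Pparg, the master regulator of fat cells, had 15.0 FPKM in the cold and 3.38 at 29 °C in a window at -224 and 14.1 in the cold and 3.88 at 29 °C in another at -908, with ratios of 4.44 (3.16 to 6.39) and 3.63 (2.62 to 5.12). Aqp7, the glycerol channel, had 25.02 FPKM in the cold and 10.95 at 29 °C with 3.70 in the cold and 4.20 at 29 °C in WT. Cidec, which enlarges lipid droplets, had 10.1 FPKM in the cold and 3.30 at 29 °C (ratio 3.05, 2.12 to 4.47), and Pdk4, which shuts off pyruvate oxidation, had 13.5 in the cold and 3.30 at 29 °C (ratio 4.1, 2.89 to 5.94). At 4 °C the highest window of the gene was of another class also for Fabp4 (25.3 FPKM), Pdk4 (23.7), Pparg (17.3), Cidec (13.7) and Esrrg (11.7). For Aqp7 and Kcnk3 it was the promoter window.

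**Figure D4:**
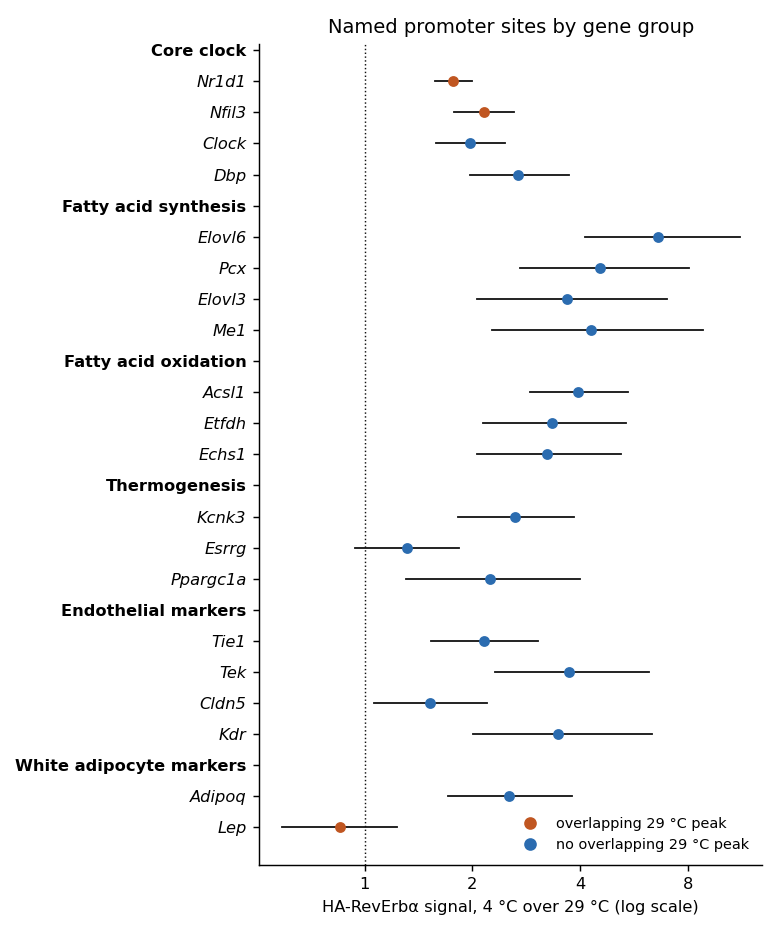
Ratio of the HA-RevErbα signal at 4 °C to that at 29 °C (x axis, log scale) at the promoter sites of 6 gene groups, up to 4 genes per group by FPKM. Bars are exact 95% intervals for counting error, and orange points overlap a 29 °C peak; Esrrg and Lep are the genes whose interval holds 1.

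In the remaining lists, a promoter window at 4 °C was found in 1 of 22 triglyceride genes (Cidec), 1 of 15 lipid uptake genes (Fabp4), 1 of 22 adipogenic factors (Pparg), 2 of 29 glucose genes (Pdk4 and Pdhb, a subunit of pyruvate dehydrogenase), 1 of 11 corepressor genes (Tbl1xr1, a subunit of the NCoR complex) and 1 of 17 output genes of BMAL1 and the D-box factors (Leo1). It was also found in 7 of 45 nuclear receptor genes, 3 of 87 respiratory chain genes, 2 of 47 mitochondrial carriers of the Slc25 family and 7 of 395 Zfp zinc finger genes (1.77%). None of 24 chaperone genes, 78 mitochondrial ribosome genes, 85 cytosolic ribosome genes and 51 proteasome genes had one. A count of 0 in lists of this size is close to the 1.77% of all protein-coding genes. A window of any kind was found in 7 chaperone genes (29.2%), 8 mitochondrial ribosome genes (10.3%), 8 cytosolic ribosome genes (9.41%) and 5 proteasome genes (9.80%), beside 21.8% of all protein-coding genes. At 29 °C a promoter window was found in 1 gene each of lipid uptake (Gpihbp1), adipogenic factors (Zbtb16), output genes (Leo1), nuclear receptors (Nr1d1), white adipocyte markers (Lep) and Zfp genes (Zfp740). Over all protein-coding genes the share at 29 °C was 0.271%.

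Among the marker lists of other cells, those of endothelium and white fat had promoter windows and the other 4 lists had none. Of 12 endothelial genes, 4 had a promoter window at 4 °C and all 12 a window of some kind, beside 1.77% and 21.8% of all protein-coding genes. Tie1, an endothelial receptor kinase, had 9.03 FPKM in the cold and 4.20 at 29 °C (ratio 2.15, 1.53 to 3.05). Tek, its relative, had 6.75 in the cold and 1.82 at 29 °C (ratio 3.73, 2.31 to 6.25), and Kdr, the VEGF receptor, had 4.87 in the cold and 1.41 at 29 °C (ratio 3.48, 2.01 to 6.35). Cldn5, a tight junction protein of vessels, had 6.52 in the cold and 4.29 at 29 °C (ratio 1.52, 1.06 to 2.20). Macrophage, skeletal muscle, smooth muscle and nerve markers, 12 genes each, had no promoter window, and 1, 1, 4 and 3 of them a window of any kind. White adipocyte markers had 2 of 11: Adipoq with 7.69 FPKM in the cold and 3.05 at 29 °C (ratio 2.53, 1.71 to 3.79) and Lep, the leptin gene, with 4.56 FPKM in the cold and 5.36 at 29 °C. Adipoq is also 1 of the brown adipocyte markers counted above, so its window does not tell brown from white adipocytes. The part of cell composition in these values was not tested.

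The 10 largest ratios were picked by the lower bound of the interval and the 10 smallest by its upper bound. Both choices favour windows with many reads. Mir6926 had the highest ratio, 10.5, but on few reads at 29 °C (interval 4.85 to 27.0), with 6.05 FPKM in the cold and 0.59 at 29 °C. By the lower bound of the interval Mir6715 led, with 18.1 FPKM in the cold and 2.15 at 29 °C and a ratio of 8.43 (5.61 to 13.2). Its WT pools had 1.30 FPKM in the cold and 3.0 at 29 °C. Tenm4, a transmembrane teneurin, had 9.42 FPKM in the cold and 1.0 at 29 °C (ratio 9.54, 5.26 to 19.0), and the kinase gene Sgk2 had 9.42 in the cold and 1.16 at 29 °C (ratio 8.17, 4.69 to 15.4). Txnip, an arrestin-like protein that limits glucose uptake, was the strongest window with a large ratio: 24.5 FPKM in the cold and 4.37 at 29 °C, with 4.06 in the cold and 3.40 at 29 °C in WT, and a ratio of 5.61 (4.18 to 7.66). Ppp1r15b, a subunit of the phosphatase that restores translation after stress, had 17.8 FPKM in the cold and 2.72 at 29 °C (ratio 6.56, 4.54 to 9.76), with 4.43 in the cold and 4.39 at 29 °C in WT. Slc25a34 had 11.9 FPKM in the cold and 1.98 at 29 °C (ratio 6.00, 3.88 to 9.65), Surf6 had 9.50 in the cold and 1.41 at 29 °C (ratio 6.79, 4.07 to 12.03) and 2610203C22Rik had 6.28 in the cold and 0.67 at 29 °C (ratio 9.54, 4.61 to 22.8). Elovl6, described above, also belongs to these 10.

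At the other end the ratio was below 1 in 3 promoter windows, while others of the 10 smallest were still higher at 4 °C. Gcgr, the glucagon receptor gene, had 3.62 FPKM in the cold and 4.45 at 29 °C (ratio 0.812, 0.536 to 1.23). Lep had a ratio of 0.851 (0.587 to 1.23), with 1.12 in the cold and 0.41 at 29 °C in WT, and Efr3a had 3.54 FPKM in the cold and 3.71 at 29 °C (ratio 0.954, 0.617 to 1.47). These are the only promoter windows with a ratio below 1, and all 3 intervals hold 1. The intervals of Esrrg, Rps6ka2 (ratio 1.27, 0.871 to 1.87) and 1700054K19Rik also hold 1, the last named after its values were seen. With the pools scaled to equal WT reads over the windows shared by the lists, which divides every ratio by 1.44, Mir7054, Esrrg, Rps6ka2 and 1700054K19Rik also come out below 1 and the other 422 of 429 above it. Others of the 10 smallest by the upper bound, whose many reads follow from that choice, were Mir7054 with 20.8 FPKM in the cold and 15.2 at 29 °C (ratio 1.37, 1.13 to 1.66), Sumo3 with 26.3 in the cold and 15.7 at 29 °C (ratio 1.67, 1.40 to 2.01), Rab37 with 20.01 in the cold and 12.02 at 29 °C (ratio 1.67, 1.35 to 2.06) and Nr1d1. These 4 overlapped a 29 °C window. Other windows among the 12 highest at 4 °C were A230028O05Rik (27.9 FPKM in the cold and 8.56 at 29 °C), Lalba (27.0 in the cold and 7.41 at 29 °C), Zfp740 (26.4 in the cold and 14.4 at 29 °C), Coq8a, a kinase-like protein of ubiquinone synthesis (25.97 in the cold and 11.6 at 29 °C), Fam124b (25.9 in the cold and 9.55 at 29 °C) and Ddx39b (25.6 in the cold and 11.7 at 29 °C).

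The 19 promoter windows of the 29 °C list without a 4 °C partner were mostly not stronger at 29 °C. Their medians were 5.97 FPKM in the cold and 4.45 at 29 °C, and the ratio was above 1 in 11 of 19, with the interval above 1 in 9 and below 1 in 2. Their WT medians were 2.22 FPKM in the cold and 0.61 at 29 °C. Low WT values at 29 °C and failing the fold over WT at 4 °C chose these windows, so a higher WT value at 4 °C is built into the choice. At 4 °C, 10 of the 19 reached 3 FPKM over WT but not the fold limit, 2 reached only the fold limit, 6 neither and 1, that of Sod2, both. Calu, a calcium-binding protein of the secretory pathway, had 19.2 FPKM in the cold and 7.74 at 29 °C with 5.17 in the cold and 1.60 at 29 °C in WT, a fold over WT of 3.72 at 4 °C and 4.85 at 29 °C. The window of 8430408G22Rik had 16.0 FPKM in the cold and 5.93 at 29 °C with 4.43 in the cold and 1.21 at 29 °C in WT, and Acsf2, an acyl-CoA synthetase, had 6.75 in the cold and 4.45 at 29 °C with 2.59 in the cold and 0.21 at 29 °C in WT. Pelo had 9.42 FPKM in the cold and 7.25 at 29 °C with 2.59 in the cold and 1.60 at 29 °C in WT. Windows with the lower signal at 4 °C included Arap1 (5.26 FPKM in the cold and 7.25 at 29 °C, ratio 0.726, 0.520 to 1.01), Efnb1 (4.64 in the cold and 4.94 at 29 °C, ratio 0.938, 0.643 to 1.37), Mir6540 (2.13 in the cold and 5.68 at 29 °C, ratio 0.373, 0.230 to 0.590) and Gm9961 (2.75 in the cold and 4.45 at 29 °C, ratio 0.618, 0.392 to 0.963). Mir6540 and Gm9961 are the 2 whose interval lies below 1. Gm9961 also had another promoter window, at -921, in the 4 °C list. That window went the other way, with 14.9 FPKM in the cold and 7.25 at 29 °C (ratio 2.06, 1.59 to 2.68).

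The nuclear receptor hexamer with a T before it and the GC box were found in larger shares of these promoters than of all coding promoters. RefSeq promoters (300 bases) were at hand for 333 of the 424 genes, and the shares that follow are of promoters of coding genes, 442 promoters of 298 genes, with motifs read on both strands. The starts of 1 gene are counted separately and often share sequence, so intervals over promoters are too narrow, and shares of genes with the motif in any promoter are given for the main comparisons. Genes with more promoters have more places for a motif, and the genes of the list, the shared ones most, have more promoters per gene than coding genes in all. AGGTCA was found in 15.6% (12.4 to 19.3%) of them and in 14.4% of all 20488 coding promoters. TAGGTCA, a longer form that is counted within AGGTCA too, was found in 4.30% (2.61 to 6.63%) and in 2.25% (2.05 to 2.46%) of all; by gene this was 6.04% (3.62 to 9.38%) of the 298 and 2.62% of all 16853. In the 54 promoters of the 32 genes whose site was shared between the lists AGGTCA was in 27.8% and TAGGTCA in 14.8%, against 13.9% (AGGTCA) and 2.84% (TAGGTCA) in the 388 promoters of the 266 genes with a 4 °C site alone. By gene, AGGTCA was in 13 of the 32 shared (40.6%, 23.7 to 59.4%) and in 47 of the 266 others (17.7%, 13.3 to 22.8%). TAGGTCA was in 8 of the 32 shared (25%, 11.5 to 43.4%) and in 10 of the 266 others (3.76%, 1.82 to 6.80%). The interval of the 266 others holds the 2.62% of all coding genes. The monomer pattern AANTAGGTCA, in which N is any base, was in 2 of the 442, those of Aifm2 and Leo1, and in 31 of all 20488 (0.151%). The exact tandem of AGGTCA spaced by 2 bases was in none of them and in none of all coding promoters. Since no coding promoter holds it, this count says nothing about tandems of inexact hexamers. Among other motifs, GGGCGG, a GC box, was in 53.8% (49.1 to 58.6%) of the 442 and in 47.6% of all, and by gene in 66.8% (61.1 to 72.1%) of the 298 and 50.7% of all. By gene it was in 59.4% (40.6 to 76.3%) of the 32 shared, an interval that holds the 50.7%. In the 266 others it was 67.7% (61.7 to 73.3%). CCAAT was in 36.0% of the 442 and 38.4% of all, and CACGTG, an E-box, in 9.05% of the 442 and 8.03% of all. CCGGAAG, an ETS site, was in 12.2% of the 442 and 11.9% of all, and TATAAA in 9.28% (6.74 to 12.4%) of the 442 and 12.4% of all. By gene TATAAA was in 13.1% (9.47 to 17.5%) of the 298 and 14.7% of all, so that interval holds the overall share, as those of the E-box, the CCAAT box and the ETS site do over promoters. The median GC content was 58.7% in the 442 and 57.0% in all.

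**Figure D5:**
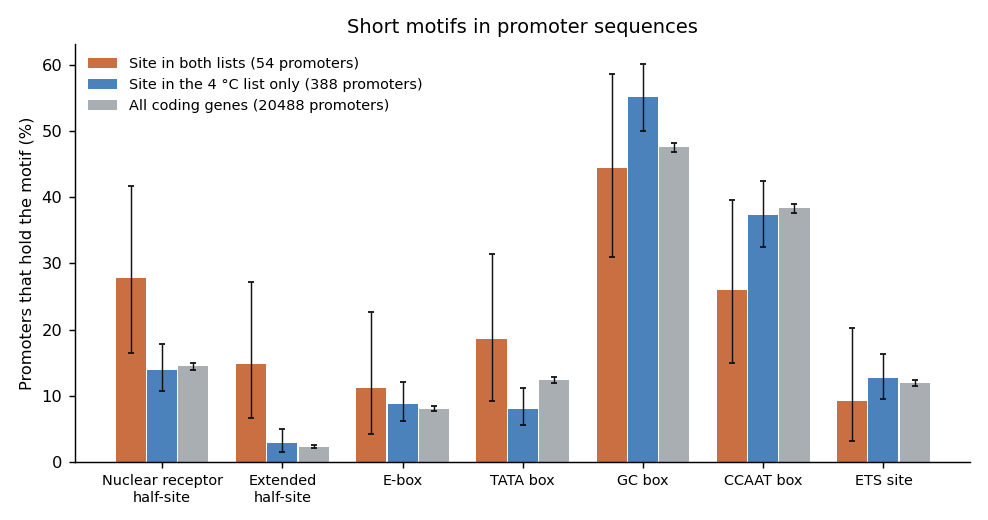
Share of coding promoters (y axis, %) that hold each of 7 short motifs on either strand, for genes with a promoter site in both lists (orange, 54), in the 4 °C list alone (blue, 388) and for all coding genes (grey, 20488). Bars carry exact 95% intervals over promoters, which count the starts of 1 gene separately and are too narrow; the extended nuclear receptor site is in 14.8%, 2.84% and 2.25%.

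The windows whose promoters hold TAGGTCA, noncoding genes included, numbered 22, and 9 of them (40.9%) were shared between the lists. They include Nfil3, Zfp740, Sumo3, Fam124b, Aifm2 and Leo1 and had medians of 8.13 FPKM in the cold and 3.67 at 29 °C. The 268 windows whose promoters hold no AGGTCA had medians of 6.75 FPKM in the cold and 2.27 at 29 °C, and 20 (7.46%) were shared. Their WT medians were 1.12 FPKM in the cold and 1.11 at 29 °C with TAGGTCA, and 1.30 in the cold and 1.41 at 29 °C without AGGTCA. Aifm2, a guard against lipid peroxidation, had 22.3 FPKM in the cold and 9.39 at 29 °C, with 1.85 in the cold and 1.60 at 29 °C in WT, and a ratio of 2.38 (1.90 to 2.98). Leo1, a subunit of the PAF1 elongation complex, had 15.9 FPKM in the cold and 4.12 at 29 °C, with 1.12 in the cold and 0.81 at 29 °C in WT, and a ratio of 3.85 (2.81 to 5.36). Fam124b had WT values of 1.12 FPKM in the cold and 0.41 at 29 °C, on 6 reads in the cold and 2 at 29 °C. Its fold over WT was 23.4 at 4 °C and 23.9 at 29 °C, the latter with a wide counting interval (6.48 to 199.9). Of 112 windows with a single annotated start and a centre within the 200 bases before it, 16 had a promoter that holds AGGTCA, and in 10 of these the nearest such hexamer lay within 50 bases of the centre. The promoter sequence covers only part of each far upstream window, and a missing match says only that these letters are not in the 300 bases.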

How the data were processed

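Chromatin immunoprecipitation followed by sequencing (ChIP-seq) with anti-HA beads gave 12 libraries. The submitters' processing notes list build mm9 and the tools Bowtie2 2.1.0 and HOMER 4.10, with no step assigned to either tool. The deposited aligner logs give whole-number counts of aligned reads per library. Per the file headers, the 2 peak lists hold FPKM in 4 pools and the authors' peak score, which tracks 2 times the FPKM of the list's own pool. Each FPKM, as deposited, is the number of reads per kilobase of window and M (mega) reads of the pool, plus 0.01. Less 0.01, 100% of values were whole multiples of 1 read within 0.01 FPKM, which gave pools of 63.8 and 60.8 M reads (HA-RevErba, 4 °C and 29 °C) and 27.1 and 25.1 M (WT). A median promoter window held 90 and 28 HA-RevErba reads, and 7 in each WT pool. How the pools were made from the larger number of aligned reads, the peak-calling settings and the treatment of duplicates are nowhere given in the sources used here.

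Ratios were computed from recovered reads, and their exact Clopper-Pearson 95% intervals include counting error alone, as reads lacking molecular identifiers need not be separate molecules. In an HA-RevErba pool 3 reads come to 0.235 FPKM at 4 °C and 0.247 at 29 °C. With 1 pool per group, no p-value was made from windows. Library depth was compared by a two-sided exact permutation test, which measures only the spread between these libraries. Windows of the lists were called shared where they had 1 bp or more in common, and the values of such sites are those of the 4 °C window. Genes were taken from the authors' annotation by gene ID, and all 424 and 65 matched the GRCm38.p6 gene table, used for names and types only. Window coordinates are in mm9 and unaltered from the files, since the base they count from is not stated. The recovery of reads and the intervals were tested on simulated data (Python 3.11.15, numpy 2.4.6, scipy 1.17.1, pandas 2.3.3).

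The members, 24 gene lists and motifs were chosen with earlier results of these data known. Named genes are the 12 highest promoter windows at 4 °C, the 10 with the largest and the 10 with the smallest ratio by the bounds of their intervals, those of the core clock list, up to 4 of each other list, and the 10 highest at 29 °C that overlap no 4 °C window. Alternatives covered the promoter definition, list limits, overlap, scaling of the pools, background subtraction and added FPKM. Some items that this rule names are not reported here.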

Additional observations from a re-analysis of the deposited data

How the results depend on the processing

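The 423 promoter windows with an interval above 1 came to between 366 and 425 under the 4 other scalings of the pools, and the count of shared windows was 46 to 48 under other overlaps. The median ratio of 3.06 was 3.30 when the pools were scaled to equal WT reads over promoter windows, 2.13 when scaled to equal WT reads over windows shared by the lists (a factor of 1.44, 0.53 on the log2 scale), 4.76 after subtracting WT (352 windows with both values above 0), 2.70 with 0.5 FPKM added and 2.81 over the 322 windows with at least 20 reads at 29 °C. Over the promoter windows of the 29 °C list it was 1.81, with 84.6% of windows above 1 and 52 with an interval above 1. The number of promoter windows in the 4 °C list was 140 within 100 bases of a start (1.25% of the list), 201 of 5490 with at least 6 FPKM over WT (3.66%) and 78 among the 2183 highest-scoring windows (3.57%). In the 29 °C list it was 17 within 100 bases (0.779%) and 19 of 743 with at least 6 FPKM over WT (2.56%). The counts fall with the number of windows kept, and the shares of the last 2 of the 4 °C list are near its 3.82%. Leaving out each library in turn moved the difference in depth to between -0.703 and 3.07 M (mega) reads, and it was below 0 without the deepest library of 4 °C (-0.703) and without either of the shallowest of 29 °C (-0.257 and -0.0957).

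No paired analysis was possible because the window values are of pools, and the replicate numbers shared by the WT groups name libraries only. For the same reason every window value includes all libraries of its pool, WT 4 °C replicate 1 among them, of whose reads 7.37% did not align. The WT pools rest on few reads per window, so a fold over WT of a single window is coarse.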

Other observations

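Members of the guanylate-binding protein family, interferon-induced GTPases that lie in clusters on chromosomes 3 and 5, were found in both promoter lists; they were picked out after their values were seen. Gbp6 had a promoter window in both lists, with 14.5 FPKM at 4 °C and 7.99 at 29 °C in the 4 °C window (ratio 1.82, 1.41 to 2.35). Gbp10 did too, with 8.32 FPKM in the cold and 3.96 at 29 °C (ratio 2.11, 1.48 to 3.03). Gbp2 had one in the 4 °C list, with 6.6 FPKM in the cold and 1.49 at 29 °C and WT values of 0.38 in the cold and 2.40 at 29 °C. Gbp7 and Gbp3 had one in the 29 °C list, with 9.73 FPKM in the cold and 5.52 at 29 °C (ratio 1.76, 1.30 to 2.41) and with 4.71 FPKM in the cold and 5.36 at 29 °C (ratio 0.880, 0.609 to 1.27). The genes are close relatives. The aligner counts list 0 reads aligned more than once in each library. How a read that matches several of these genes was placed is not stated, so single values are uncertain.

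Of the 424 genes with a promoter window at 4 °C, 201 had no other window in the list. In the other 223 genes the promoter window was the highest in 76. Slc25a25 and Slc25a34, mitochondrial carriers whose promoter windows had 10.1 FPKM (Slc25a25) and 11.9 FPKM (Slc25a34) at 4 °C, each had a window of 26.4 FPKM in an intron, and Tbl1xr1, with 4.56 FPKM at its promoter at 4 °C, had 15 windows in all.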
